A study of Drosophila melanogaster with 6 samples.

Results

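The vacuolar ATPase (V-ATPase) is the proton pump that acidifies lysosomes, endosomes and Golgi compartments. Its peripheral V1 sector (subunits A to H) hydrolyses ATP and turns a central shaft, and its membrane V0 sector (subunits a, c, c'', d and e) carries protons across the membrane as a ring of c subunits rotates. In Drosophila most subunits are encoded by several genes, of which usually a single gene is used throughout the body, while further paralogs are known mainly from particular tissues such as the testis. The genes described here are those whose FlyBase symbol begins with Vha, and 33 of the 16451 genes in the deposited tables met that rule. By textbook knowledge of the subunits, and by no cut on the levels measured here, 16 were classed as general isoforms and 17 as further paralogs. Earlier results of these data were known when the classes were set.

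RNA was sequenced from S2 cells, a line of wild-type genotype that came from Drosophila melanogaster embryos and resembles hemocytes, the blood cells of the fly. The 3 control libraries came from cells given only an added volume of Schneider's medium, and the 3 H2O2 libraries from cells given 10 mM hydrogen peroxide, in both cases for 30 min at 25 °C. All cells were grown with 10% fetal bovine serum, streptomycin and penicillin. The series title places the comparison in work on the stress kinase p38, and the labels do not state whether the replicates were separate cultures, so the p-values reflect only how far these particular libraries spread, and that spread may be technical.

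Between 35404927 and 42043808 reads per library were assigned to genes, and Vha genes took 0.511 to 0.559% of them in controls and 0.526 to 0.589% after H2O2. Of 10 hemocyte markers, all 10 reached 1 CPM (counts relative to the library total, scaled by TMM) in controls, among them srp at 408 CPM and Hml at 5273 CPM, while 0 of 4 fat body and 0 of 4 muscle markers did. Of 4 neuron markers, 3 reached it (elav at 27.0, brp at 26.6 and Syt1 at 1.52 CPM), as did 1 of 4 ovary soma markers (ptc, 101 CPM). Of 9 testis germline markers, 1 did (bam, 172 CPM), and comr, sa, dj and ProtA had 0 counts in all 6 libraries. The summed level of the testis markers was 155.3 to 197 CPM in controls and 155.4 to 220.2 CPM after H2O2, and that of the hemocyte markers 9853 to 12090 CPM and 7333 to 8951 CPM. The largest part of the latter sum was Hml (5273 and 3212 CPM, log2 fold change −0.72, edgeR adjusted p = 0.0817). With a per-library trend on transcript length taken out, its value was −0.12. At an adjusted p under 0.05, 0 of the 10 hemocyte markers were called, where 2.57% of all genes tested were higher and 0.57% lower. Of the 10, 4 had a positive fold change. With the replicate number as a block, 4 were called lower (Hml, eater, vkg and Col4a1), where 12.8% of all genes were. Once the length trend was also taken out, 0 were called lower, where 1.32% of all genes were. In these bulk samples, fewer cells of a type and less RNA per cell cannot be told apart.

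Across subunits, the general isoforms gave nearly all of the Vha RNA. In controls, the highest level per length (TPM, a share of all transcripts) was that of Vha16-1, the c subunit that forms the rotating proteolipid ring, at 622 ± 32.2 TPM (SD, n = 3). Vha26 (453 ± 28.1 TPM), the E subunit of the peripheral stalk, and VhaM9.7-b (451 ± 40.8 TPM), the small e subunit, came next and overlapped each other. VhaAC45, the accessory subunit of the V0 sector, followed at 330 ± 30.0 TPM. A group of 9 genes then ran from Vha13 (G, peripheral stalk), at 221 ± 19.2 TPM, down to VhaSFD (H, a regulator that holds free V1 inactive), at 137 ± 3.38 TPM, and within it all neighbours in the order overlapped except VhaAC39-1 (d, 217 ± 1.76 TPM) and Vha14-1 (F, 185 ± 9.67 TPM). Below them stood the a subunits, with Vha100-1 at 104 ± 21.6 TPM and Vha100-2 at 85.8 ± 1.52 TPM, whose control values overlapped. The exception among the general isoforms was VhaM9.7-a (e), which had 0, 0 and 1 count in controls and 1, 1 and 0 counts after H2O2.

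**Figure D1:**
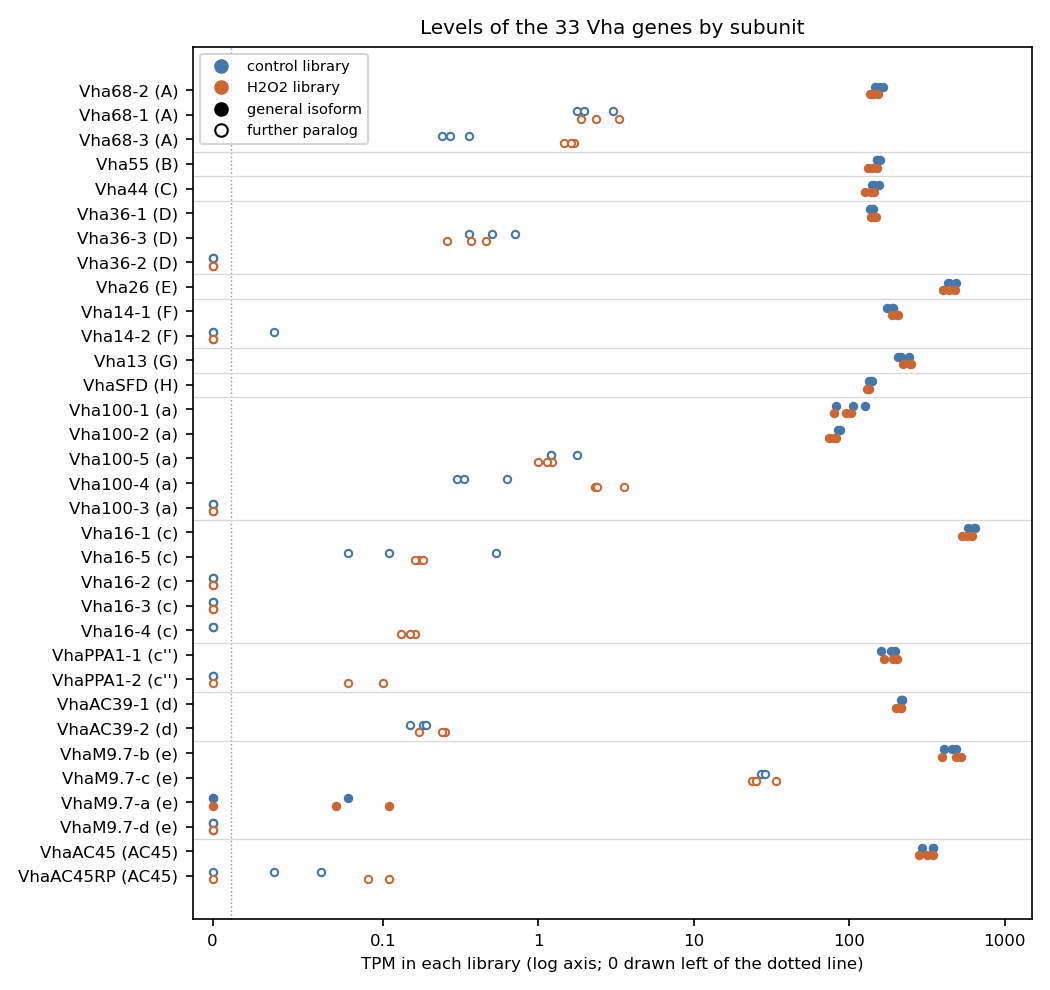
TPM in each of the 6 libraries (log axis, with 0 drawn to the left of the dotted line) for the 33 Vha genes, ordered by subunit; filled circles are general isoforms and open circles further paralogs, in blue for control and orange for H2O2. The general isoforms lie at 73.7 TPM or more in both colours except VhaM9.7-a, VhaM9.7-c is the highest paralog, and in Vha68-3 and Vha100-4 the orange circles lie to the right of all blue ones.

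Within most subunits a single gene made up the pool. The general isoform held at least 99.5% of the TPM of its subunit in every library for D, F, c, c'', d and AC45, and Vha55 (B), Vha44 (C), Vha26 (E), Vha13 (G) and VhaSFD (H) were the sole Vha genes of theirs. The a subunit was shared between a pair of genes. Vha100-1 is known in flies as the neuronal a subunit, but was classed here as a general isoform. It held 47.9 to 59.3% of the a-subunit TPM in controls and 48.0 to 55.3% after H2O2. Vha100-2 held 39.8 to 50.9% and 42.4 to 49.9%. For the e subunit, the paralog VhaM9.7-c held 5.52 to 6.39% in controls and 4.92 to 6.08% after H2O2. In these 3 replicates a group, the shares of Vha100-1, Vha100-2 and VhaM9.7-c overlapped between the groups. Vha68-2 held 98.07 to 98.63% of the A-subunit TPM in controls and 96.87 to 97.71% after H2O2, without overlap. Differences in shares were not tested.

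After 30 min of H2O2 no general isoform passed the test with group as the only term, in either direction. In edgeR's quasi-likelihood test over 8955 genes with Benjamini-Hochberg adjustment, in which 2.57% of all genes tested were called higher and 0.57% lower at an adjusted p under 0.05, 15 of the 16 general isoforms had enough counts to be tested, with 0 called higher and 0 lower. With the replicate number as a block, 1 general isoform, Vha14-1, was called higher (edgeR adjusted p = 0.0473), where 8.99% of all genes tested were. In that fit Vha13 had an adjusted p of 0.0592. Over all 21 Vha genes tested, 0 were called lower also by DESeq2 and by limma on TPM, and 0 had an unadjusted p under 0.05 on the lower side in edgeR. The log2 fold changes of the general isoforms (H2O2 against control) ran from −0.09 to 0.21 with a median of 0.03, and their standard errors (SE) from 0.09 to 0.19. The median over all genes tested was 0.02, and over the 3624 genes of at least 50 CPM it was −0.05. The 8 V1 isoforms had a median of 0.04 and the 6 tested V0 isoforms 0.01.

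Among the V1 genes, Vha68-2, the catalytic A subunit, had 299, 331 and 347 CPM in control replicates 1 to 3 and 312, 318 and 327 CPM after H2O2, and the groups overlapped (log2 fold change −0.03, SE 0.11, edgeR adjusted p = 0.961). Vha55, the B subunit that alternates with A in the ATP-hydrolysing head, had 336, 339.6 and 355 CPM against 352, 334 and 323 CPM. Its groups overlapped too (−0.03, SE 0.10, edgeR adjusted p = 0.958). The shaft subunit Vha36-1 (D) had 109 CPM in each control and 123, 126 and 112 CPM after H2O2. All 3 of those values lay above the controls, but the gene was not called (0.14, SE 0.10, edgeR adjusted p = 0.669). Its partner in the shaft, Vha14-1 (F), had 76.4, 72.9 and 79.1 CPM and then 89.5, 88.5 and 86.0 CPM. These groups did not overlap either (0.21, SE 0.09, edgeR adjusted p = 0.397), and Vha14-1 was called with the replicate number as a block (adjusted p = 0.0473), though not once a per-library trend on transcript length was also taken out (0.06, adjusted p = 0.65).

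The stalk subunit Vha13 (G) likewise had 96.7, 96.8 and 112 CPM against 121, 116 and 117 CPM. It was the third general isoform without overlap (0.21, SE 0.11, edgeR adjusted p = 0.463), and over all genes tested 9.98% had every H2O2 library above every control. With the trend on transcript length taken out and no block, the log2 fold changes of Vha13 and Vha36-1 were 0.06 and 0.02. Vha26 (E), the other stalk subunit, had 771, 791 and 875 CPM against 759, 877 and 887 CPM, with overlap (0.05, SE 0.12, edgeR adjusted p = 0.937). Vha44 (C), which clamps V1 to V0, had 228, 211 and 217 CPM against 222, 222 and 216 CPM. VhaSFD (H) had 241, 255 and 240.2 CPM against 251, 260.4 and 241 CPM, and neither gene's groups were separate (0.01 and 0.03).

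Among the V0 genes, Vha16-1 (c) was the most abundant Vha gene by counts as well, with 1371, 1560.2 and 1550.0 CPM in controls and 1339.9, 1532 and 1515 CPM after H2O2. The groups overlapped (−0.03, SE 0.11, edgeR adjusted p = 0.965). VhaPPA1-1, the c'' subunit of the same ring, had 164, 196 and 205 CPM against 183, 225 and 217 CPM (0.14, SE 0.14, edgeR adjusted p = 0.79). VhaAC39-1, the d subunit that joins ring and shaft, had 303, 321 and 315 CPM against 327, 327 and 320.4 CPM. The highest control lay above the lowest H2O2 library, while H2O2 was higher in each same-numbered pair (0.05, SE 0.10, edgeR adjusted p = 0.911). VhaM9.7-b (e) had 182, 213 and 222 CPM against 189.7, 252 and 247 CPM (0.16, SE 0.15, edgeR adjusted p = 0.789). VhaAC45 had 451, 549.9 and 548 CPM against 461, 558 and 561 CPM, which is a log2 fold change of 0.03 (SE 0.14).

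Of the a subunits, Vha100-1 had the largest SE of the general isoforms tested, with 201, 319 and 265 CPM in controls and 208, 267 and 263 CPM after H2O2 (−0.09, SE 0.19, edgeR adjusted p = 0.93). Vha100-2 had closer replicates, with 218, 219 and 221 CPM against 222, 211 and 209 CPM (−0.04, SE 0.10, edgeR adjusted p = 0.948). Within same-numbered pairs, 8 of the 15 general isoforms tested were higher after H2O2 in all 3 pairs and 1, Vha16-1, was lower in all 3, while over all genes tested 30.3% were higher and 26.7% lower in all 3. The folds of Vha16-1 were 0.978, 0.982 and 0.977. With the replicate block, Vha14-1 was the only general isoform called. Much of the spread was shared by replicate number. Replicate 1 was the lowest control in 11 of the 15 tested general isoforms and the lowest in both groups in 7 of them. Summed over the 7 V0 and accessory isoforms tested, controls had 2890.5, 3378 and 3326 CPM, and H2O2 libraries had 2930.8, 3372 and 3332 CPM. The V1 isoforms summed to 2158, 2205 and 2335 CPM against 2230.3, 2341 and 2308 CPM.

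**Figure D2:**
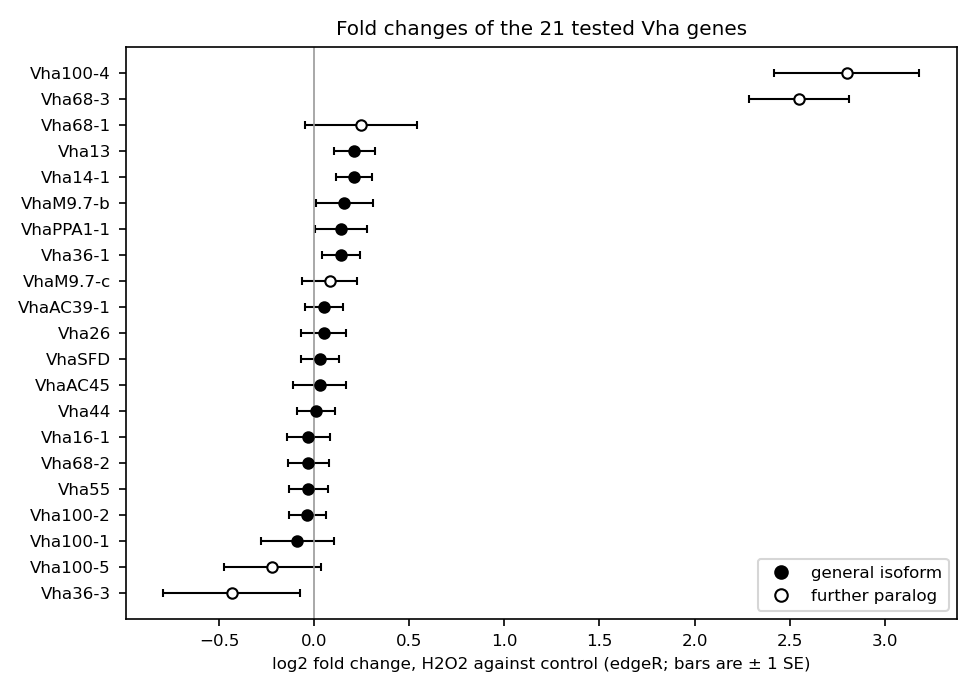
Log2 fold change of the 21 Vha genes tested (H2O2 against control, edgeR, 3 libraries a group), with bars of 1 SE to each side; filled circles are general isoforms and open circles further paralogs. Vha100-4 and Vha68-3 stand at 2.80 and 2.55, and the other 19 genes lie between −0.43 and 0.25.

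The further paralogs split into a few genes with RNA and many with almost none. Of 17, 6 passed the low-count filter (about 10 counts in at least 3 libraries), and each of those 6 passed it in all 3 controls by itself. Of the 6, Vha68-3 and Vha100-4 were called higher after H2O2 and 0 were called lower. Among the 2071 tested genes under 5 CPM (mean over all 6 libraries), the class to which both belong, 10.2% were called higher, against 0.0276% of those of at least 50 CPM. Of the 2071, 1462 reached the low-count filter in all 3 controls and 188 in none. The share of 10.2% thus includes genes that could be tested only through their H2O2 libraries.

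Vha68-3 encodes a further A subunit and lies on chromosome arm 2L from base 12978786 to 12981293 (BDGP6.54, the assembly also called dm6), on the plus strand. It had 20, 28 and 18 counts in controls and 112, 163 and 135 counts after H2O2. Every H2O2 library was above every control, at 0.537, 0.740 and 0.498 CPM against 3.12, 3.89 and 3.42 CPM. The log2 fold change was 2.55 (SE 0.26, edgeR adjusted p = 0.0134), which is 5.85-fold, and each same-numbered pair of libraries rose, by 5.81-fold, 5.26-fold and 6.88-fold. Its share of the A-subunit TPM went from 0.142 to 0.228% in controls to 1.002 to 1.218% after H2O2.

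Vha100-4 encodes a further a subunit and lies on arm 3R from base 18386841 to 18389805, on the minus strand. It had 28, 56 and 25 counts in controls and 200, 386 and 223 counts after H2O2, with the second replicate highest in both groups. In CPM these were 0.752, 1.48 and 0.691 against 5.58, 9.22 and 5.65, with no overlap. The log2 fold change was 2.80 (SE 0.38, edgeR adjusted p = 0.0165), which is 6.97-fold. It made up 0.156 to 0.298% of the a-subunit TPM in controls and 1.29 to 2.06% after H2O2. For both paralogs the posterior SD that RSEM gives for the count, which is above 0 where reads are divided between genes, was 0 in all 6 libraries. With single libraries left out, the edgeR adjusted p of Vha68-3 became 0.0669 when control replicate 2 was dropped, 0.0744 when control replicate 3 was, and 0.0558 when H2O2 replicate 2 was. For Vha100-4 these values were 0.0669, 0.0764 and 0.0617, and dropping control replicate 1 gave 0.0502. In the 3 fits that lost both calls, edgeR called 0 genes of any kind, although both paralogs had an unadjusted p under 0.05 there.

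The 4 other paralogs tested were not called, with log2 fold changes from −0.43 to 0.25 and edgeR adjusted p from 0.736 to 0.906. VhaM9.7-c (e) was the most abundant paralog, with 594, 612 and 604 counts in controls and 525, 695 and 805 counts after H2O2, and these groups overlapped. The gene lies within the span of Teh2 on the same strand and of CG18675 on the other. Vha68-1, the remaining A subunit, had 3.76, 4.36 and 6.66 CPM against 4.32, 5.78 and 7.43 CPM. Its expected counts were not whole, and their highest posterior SD was 0.84, the same as that of Vha68-2. Vha100-5 (a) had 159, 109 and 102 counts against 111, 131 and 92, and Vha36-3 (D) had 23, 19 and 11 counts against 13, 12 and 16. In each of these 4 the groups overlapped.

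The other 11 paralogs stayed below the filter in every library. Vha100-3 (a), Vha16-2 and Vha16-3 (c), Vha36-2 (D) and VhaM9.7-d (e) had 0 counts in all 6 libraries, which allows up to 3 counts, or 0.0716 to 0.0837 CPM, per library by counting error alone. Vha14-2 (F) had 1 count, in control replicate 2. Vha16-5 (c) had 1, 2 and 9 counts against 3, 4 and 3, and VhaAC39-2 (d) had 6, 7 and 5 counts against 6, 11 and 9. VhaAC45RP had 0, 1 and 2 counts against 4, 0 and 6. VhaPPA1-2 (c'') had 0 counts in controls and 0, 2 and 1 counts after H2O2. Vha16-4 (c) had 0 counts in all controls and 2 counts in each H2O2 library. Set against a limit of 3 counts over the control group, its 6 H2O2 counts give a ratio of 1.9. That ratio leaves out the counting error of the H2O2 counts, so it is not a lower bound. With no low-count filter, the 6 of these 11 genes with any count could be tested, and 0 were called, with edgeR adjusted p from 0.236 (Vha16-4) to 0.907 (Vha16-5).

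The rule for this comparison set the paralogs beside the genes that come before them on the chromosome. A gene is called downstream here when the 3' end of the nearest same-strand gene before it lies at most 5 kb from its start. By that rule 11 of the 17 paralogs were downstream of another gene, and 3 of them of a Vha gene. Vha68-3 starts 178 bp after Vha68-2 (2L, bases 12974322 to 12978607), Vha100-4 starts 517 bp after Vha100-2 (3R, bases 18390323 to 18399169), and Vha16-2 starts 985 bp after Vha16-3, which like Vha16-2 had 0 counts. The 2 called paralogs were the 2 that follow an abundant Vha gene within 5 kb.

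**Figure D3:**
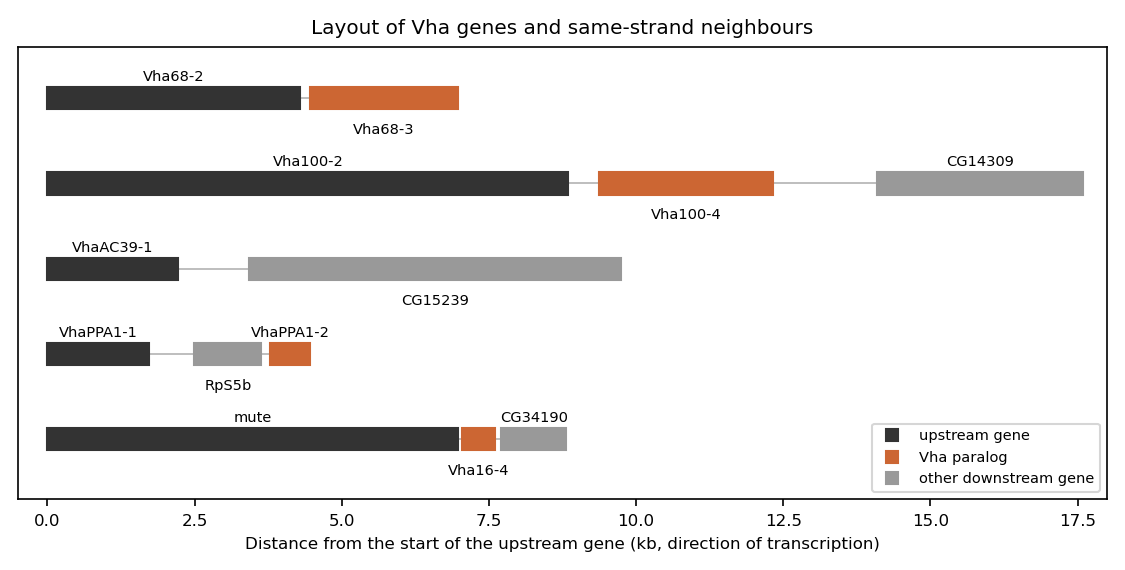
Gene spans drawn to scale as distance in kb from the start of the first gene of each row, in the direction of transcription; dark bars are upstream genes, orange bars Vha paralogs and grey bars other downstream genes. Vha68-3 and Vha100-4 begin 178 and 517 bp after the end of a general isoform, VhaPPA1-2 is separated from VhaPPA1-1 by RpS5b, and Vha16-4 lies 71 bp after mute.

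To ask whether a downstream gene moved unlike the gene before it, the ratio of the pair was taken within each library and tested with limma over all 3555 same-strand pairs whose upstream gene had at least 10 CPM. Of all pairs, 4.56% were called higher and 0.309% lower. Per 1000 reads of Vha68-2, Vha68-3 had 1.80, 2.24 and 1.43 reads in controls and 10.0, 12.2 and 10.5 reads after H2O2. The ratio rose 5.95-fold (log2 2.57, SE 0.26, limma adjusted p = 0.00602), while Vha68-2 itself had a log2 fold change of −0.03. Per 1000 reads of Vha100-2, Vha100-4 had 3.45, 6.75 and 3.13 reads in controls and 25.2, 43.6 and 27.0 reads after H2O2. This ratio rose 7.32-fold (log2 2.87, SE 0.37, limma adjusted p = 0.00823), and without H2O2 replicate 2 it was 2.62 with an adjusted p of 0.0522. In every library both paralogs stayed far below the gene before them, with at most 43.6 reads per 1000.

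**Figure D4:**
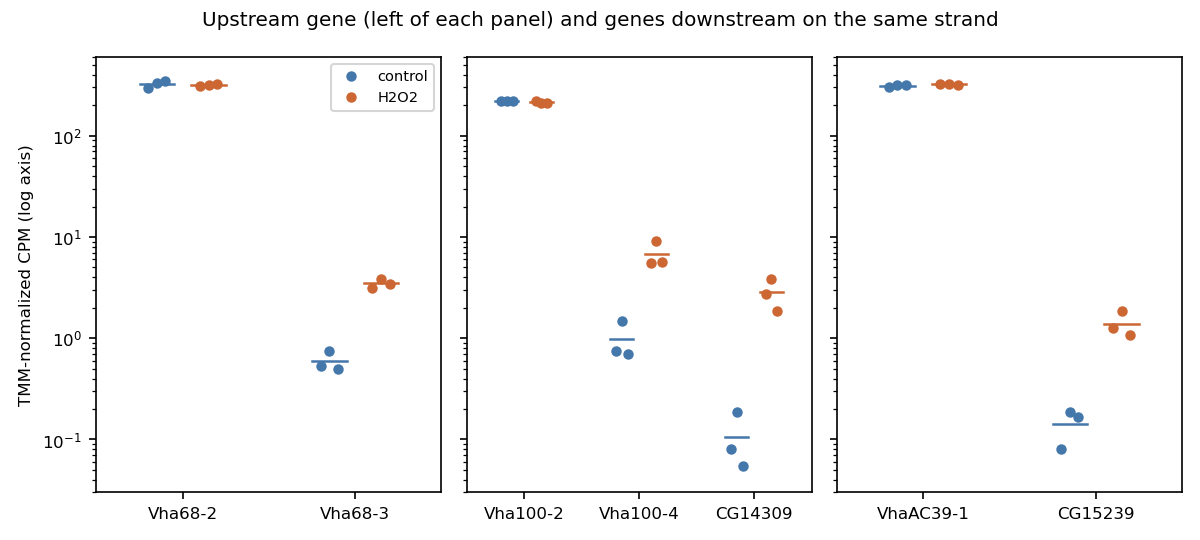
TMM-normalized CPM (log axis) in each library for an upstream Vha gene, at the left of each panel, and the genes after it on the same strand; points are libraries and short lines group means, blue for control and orange for H2O2. The upstream genes lie between 209 and 347 CPM in both groups. Only downstream genes that edgeR called higher are drawn, and each is higher in all 3 H2O2 libraries than in all 3 controls. The low gene RpS5b after VhaPPA1-1, whose groups overlapped, is not drawn.

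Low genes after Vha genes that are not themselves Vha genes were also higher in some cases. Beyond Vha100-4, 1768 bp further along the same strand, CG14309 had 3, 7 and 2 counts in controls and 98, 163 and 74 counts after H2O2 (log2 fold change 4.68, SE 0.50, edgeR adjusted p = 0.0134). CG15239 starts 1200 bp after VhaAC39-1 on the X chromosome, and had 3, 7 and 6 counts against 45, 77 and 42 (3.24, SE 0.41, edgeR adjusted p = 0.0134). Its ratio to VhaAC39-1 rose by 3.14 on the log2 scale (limma adjusted p = 0.00823). Both genes reached the low-count filter only in H2O2 libraries, so that they could be tested only because they were higher there. CG33290, 1143 bp after VhaM9.7-b, had 0.161, 0.343 and 0.332 CPM against 0.669, 0.907 and 1.14 CPM. Its ratio to VhaM9.7-b rose by 1.54 (limma adjusted p = 0.0453), while the gene by itself missed the threshold (1.69, edgeR adjusted p = 0.0691). CG1273 starts 254 bp after VhaM9.7-a, which had a mean of only 0.00922 CPM in controls. It had 1, 9 and 2 counts against 55, 58 and 19, and was not called (3.36, SE 0.74, edgeR adjusted p = 0.0655). With the replicate block CG1273 was called (edgeR adjusted p = 0.000579), where 8.99% of all genes were called higher. CG1273 too reached the low-count filter only in H2O2 libraries.

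In all, 14 genes lay downstream of a Vha gene of at least 10 CPM. Of the 9 with a mean under 5 CPM, 6 were tested and 4 had a higher ratio, namely Vha68-3, Vha100-4, CG15239 and CG33290, and the lowest and highest of the 6 changes were 0.90 and 3.14 on the log2 scale. Of the 6, CG15239 and Teh3 reached the low-count filter in 0 controls and CG33290 in 2 of 3, so their entry rested on the H2O2 libraries, and the count is a description only. Vha68-3, Vha100-4 and RpS5b reached it in all 3 controls. The 2 that were not called, RpS5b after VhaPPA1-1 (0.90, limma adjusted p = 0.317) and Teh3 after VhaM9.7-c (1.40, limma adjusted p = 0.161), were called with the replicate block (0.0482 and 0.0283), under which 20.1% of all pairs were called higher and 11.8% lower. Teh3 lies within the span of Teh2 on the same strand. Its expected counts were not whole, and their highest posterior SD was 1.03, the same as that of Teh2. The other 3 of the 9 were too low to test, and of these CG33919, 664 bp after Vha16-1, had 2, 1 and 3 counts against 2, 17 and 7. Of the 5 with at least 5 CPM, 0 were called, with ratios from −0.74 to −0.01. The lowest of these was subdued after Vha13, with a limma adjusted p of 0.114 and 0.0182 with the block. Any difference between the low and the high genes after Vha genes was not tested.

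Over all pairs tested, where the downstream gene had a mean under 5 CPM, 148 of 774 pairs (19.1%) had a higher ratio and 0 a lower, with a median of 0.59. Where it had at least 5 CPM, 0.503% had a higher ratio and the median was −0.01. Among low downstream genes within 1 kb of an upstream gene of at least 100 CPM, as Vha68-3 and Vha100-4 are, 36 of 148 (24.3%) were called higher, with a median of 1.03. By distance alone, 77 of 411 low pairs (18.7%) with a gap up to 1 kb were called higher, with a median of 0.72. With a wider gap, 71 of 363 (19.6%) were, with a median of 0.51. Of the 774 low downstream genes, 508 reached the low-count filter in all 3 controls and 92 in none. For the 148 this was not counted. The ratios of both Vha paralogs were above the median of such pairs, and whether they differ from them was not tested.

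**Figure D5:**
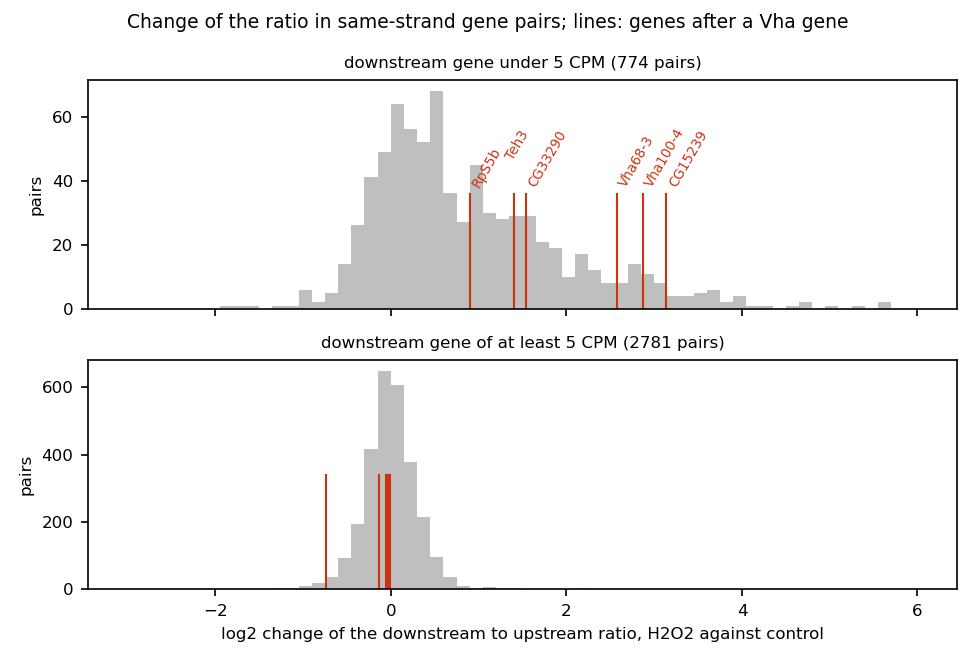
Number of same-strand gene pairs (bars) by the log2 change of the downstream to upstream ratio, H2O2 against control, for downstream genes under 5 CPM (upper panel, 774 pairs) and of at least 5 CPM (lower panel, 2781 pairs); red lines mark genes that follow a Vha gene. The upper bars have a median of 0.59 with a long right side in which Vha68-3 (2.57), Vha100-4 (2.87) and CG15239 (3.14) lie, and the lower bars centre on −0.01.

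Other paralogs that start close to the gene before them had few reads in either group. Vha16-4 lies 71 bp after mute, a gene with 126 ± 3.90 CPM in controls (log2 fold change −0.22, edgeR adjusted p = 0.447), and had 0 and then 2 counts a library. The next gene, CG34190, 103 bp after Vha16-4, had 1, 0 and 0 counts against 11, 12 and 8 counts. VhaPPA1-2 lies 154 bp after RpS5b, which had 18, 13 and 32 counts against 46, 51 and 34 and itself starts 766 bp after VhaPPA1-1. VhaAC45RP lies 211 bp after Rsod, which had 0.234 ± 0.0200 CPM in controls. The other downstream paralogs follow genes 1160 to 3738 bp away. Of these, Vha36-3 after CG13760 (10.2 ± 0.398 CPM in controls, log2 fold change 0.07) had a change of the ratio of −0.45 (limma adjusted p = 0.671). Vha16-5 follows CG6729 (34.8 ± 1.67 CPM in controls, log2 fold change −0.08), and Vha100-5, VhaAC39-2 and Vha36-2 follow genes with a mean under 0.15 CPM in controls.

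Of the genes on the opposite strand at these loci, cona and CG3817 had overlapping groups. The gene cona, whose span meets the end of Vha100-4 from the other strand, had 3, 11 and 6 counts in controls and 6, 4 and 7 counts after H2O2. CG3817, which overlaps VhaPPA1-2 on the other strand, had 1433, 964 and 1144 counts against 1455, 1043 and 1194, while VhaPPA1-2 had at most 2. CG18675, opposite VhaM9.7-c, had all H2O2 libraries above all controls, at 17.4, 7.67 and 5.86 counts against 26.2, 39.3 and 33.5. It was not called (1.58, SE 0.41, edgeR adjusted p = 0.102, and 0.00987 with the replicate block). The highest posterior SD of its expected counts was 2.23. The library kit keeps strand according to the labels' protocols.

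Other genes of acidification were read from a list of 60 symbols for pump assembly, ion exchange, nutrient sensing at the lysosome and lysosome content, of which 50 matched and 47 were tested. The median log2 fold change was −0.01, beside 0.02 over all genes, and 0 were called higher and 1 lower, where 0.57% of all genes were called lower. The called gene was Rbcn-3A, which encodes a part of the complex that promotes V-ATPase assembly. It had 212, 258 and 256 CPM in controls and 166, 145 and 157 CPM after H2O2, without overlap (−0.63, SE 0.12, edgeR adjusted p = 0.0448). Once the trend on transcript length was taken out, the value was −0.07 and the call was lost (edgeR adjusted p = 1.0). Its partner Rbcn-3B had a log2 fold change of −0.45 (edgeR adjusted p = 0.146).

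By group within the list, the 7 assembly genes had a median of −0.16, the 7 ion exchange genes −0.27, the 14 nutrient sensing genes 0.05 and the 19 lysosome content genes 0.04. With the length trend taken out these medians were −0.04, −0.14, 0.01 and 0.01. With the replicate block, 4 were higher and 10 lower, where 8.99% and 12.8% of all genes were called, and once the length trend was also taken out 1 was higher and 0 lower, where 6.1% and 1.32% of all genes were called. The 4 higher genes, named after their values were seen, were Lamtor2, Lamtor4, Lamtor5 and Rheb. They stand in the nutrient sensing group, of which Tsc1 and gig were called lower in the same fit, and the other 8 lower genes were 3 of assembly (Rbcn-3A, Rbcn-3B and step), 4 of ion exchange (ClC-c, Nhe2, Nhe3 and Trpml) and Npc1a of lysosome content. The later single gene was the lysosomal transporter gene spin. The accessory subunit gene ATP6AP2, whose symbol does not begin with Vha, had a log2 fold change of 0.10 (edgeR adjusted p = 0.862).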

How the data were processed

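Poly(A) RNA of 6 libraries was sequenced with a stranded kit, per the labels' protocols. Per the submitters' processing notes, the authors used STAR 2.4.0j, RSEM 1.2.21 and genome build dm6. Their gene annotation was not given in the sources used here. RSEM's expected count per gene was estimated by the authors before they deposited the tables, per the file headers, together with a TPM value, lengths and the posterior SD of the count (other columns). Expected counts were rounded and tested with edgeR 4.0.16 in R 4.3.3 (filterByExpr, which kept 8955 genes; TMM; robust quasi-likelihood F test, two-sided, group as the only term), with Benjamini-Hochberg adjustment over all genes tested and calls at an adjusted p under 0.05. The deposited TPM values served for levels between genes and, on the log2(TPM + 1) and log2(TPM + 0.1) scales, for limma 3.58.1; DESeq2 1.42.0 was a further alternative. Pair ratios (prior count 0.5) were tested with limma, with a trend on the downstream mean.

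Symbols and positions came from Ensembl release 115 (BDGP6.54) and matched 16419 of 16451 genes. Same-numbered libraries deviated together (correlations over genes 0.717, 0.518 and 0.601), so the numbers were read as pairs from the data. A chi-square comparison of counts gave 45.5 to 211 per degree of freedom over 15 library pairs, so none was a duplicate. Library totals of 35404927 to 42043808 counts set the precision, and limits for 0 counts cover counting error only. The scripts were tested on simulated data. Members, classes and lists were chosen with earlier results of these data known. By rule, every Vha gene is named, and full statistics were planned for called members, downstream paralogs with their upstream genes, and the most abundant isoform of each subunit. For some of the uncalled genes among these, only levels, counts or fold changes are given. Neighbouring genes other than upstream genes, and the genes called with the block, were chosen after their values were seen.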

Additional observations from a re-analysis of the deposited data

How the results depend on the processing

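Counts over all genes tested are given in brackets. The count of Vha genes called higher was 2 under DESeq2 (360 of 8955). On the log2(TPM + 1) and log2(TPM + 0.1) scales it was 2 (170 and 226 of 8955). It was also 2 with no low-count filter (282 of 13324), a filter of 50 counts (60 of 7718) and the length trend removed (205 of 8955). The block fit without replicate 1 of both groups, added after the data were seen, gave 2 as well (642 of 9098). With the replicate block the Vha count was 3 (805 of 8955), and that block changed no other call of a Vha gene than that of Vha14-1. With single libraries left out, the Vha count ran from 0 to 2. It was 1 (Vha68-3) with control replicate 1 left out (77 of 9163). It was 0 with control replicate 2, control replicate 3 or H2O2 replicate 2 left out, and the unadjusted p was under 0.05 for 1054, 1054 and 891 genes there, both paralogs among them. The count lower was 0 under all 15 alternatives. Over them the log2 fold change of Vha68-3 ran from 1.01 to 2.74 and that of Vha100-4 from 1.40 to 3.23, lowest on the log2(TPM + 1) scale. The Vha68-3 ratio ran from 2.41 to 2.73 over 12 alternatives and stayed called; that of Vha100-4 ran from 2.62 to 3.21 and missed the threshold without H2O2 replicate 2. The median of the general isoforms was −0.06 on both TPM scales (−0.0607 and −0.0611), where the median of all genes was −0.06 and −0.07. Of the 19 uncalled members, 11 changed sign in at least 1 alternative. On the acidification list, with 47 genes tested in the main fit, the count lower was 2 by DESeq2 (346 of 8955). The replicate block gave 10 (1142 of 8955), and the block without replicate 1 gave 7 (894 of 9098). A filter of 50 counts gave 0 (16 of 7718). Removal of the length trend gave 0 without the block (9 of 8955) and with it (118 of 8955). Leaving out any single library also gave 0, where 0 to 20 of all genes were called lower. The count higher was 4 with the block (805 of 8955) and 1 after removal of the length trend beside it (546 of 8955). The cause of these changes was not tested. Depth limits the 11 paralogs below the filter, of which 5 had 0 counts.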
